A study of Mus musculus with 112 samples.

Results

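Sperm DNA methylation (DNAme) of inbred F0 males was compared with that of hybrid F1 males, both without cigarette smoke (CS) exposure. The F0 group held 10 libraries of C57BL/6J wild type (WT) males that served as unexposed controls. The F1 group held 6 libraries of sons of unexposed WT sires. The study's methods give the mothers as unexposed CAST/EiJ females, so every son was a hybrid that carried 1 set of autosomes from each strain, although the strain label of the sons reads only C57BL/6J wild type. Members of the comparison were all cytosines with a methylation percent in at least 4 libraries of both groups, which were 462924 of the 2781199 cytosines with a value in either group and of the 3443403 with a value in any table used. F0 males entered the study at 6 to 7 weeks of age. The CS group was exposed for 60 days, and tissue of the unexposed controls was taken within 3 days of the end of that period. The study's methods put the breeding of the sires about 1 week after that period, so the F0 males measured were not the fathers of the F1 males. F1 males were 14 to 17 weeks old. Sperm of smoked WT F0 males (n = 9), sperm of sons of smoked sires (n = 7) and brain (prefrontal cortex) of sons of control sires (n = 8) served as other libraries in which a pattern could be looked at again.

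In mammals, methyl groups sit mostly on the cytosine of a CpG, a C followed by a G, on both strands. Sperm DNA is methylated at most CpGs outside CpG-dense promoters, and the pattern is laid down anew in the germ line of each male. Imprinted genes are an exception to the resetting that follows fertilization: their control regions carry methylation from 1 parent only, which leaves them close to 0 or 100% in sperm and between these in the body. Sons of this cross receive their X from the CAST/EiJ mother and their Y from the C57BL/6J sire. After bisulfite, a cytosine without a methyl group appears as thymine in the reads, and so does a thymine that the DNA carried from the start. At a cytosine of the reference that CAST/EiJ DNA does not hold, sequence and methylation can therefore not be told apart. The CAST/EiJ genome was not used here.

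Libraries were made by reduced representation bisulfite sequencing (RRBS) from separate MspI and TaqαI digests that were pooled. MspI cuts at CCGG, which is most common in CpG-dense DNA, and TaqαI cuts at TCGA, which also occurs where CpGs are sparse. On the C57BL/6J reference, 179195 members lay within a 50-base read from an MspI cut alone, 251678 from a TaqαI cut alone, 31461 from both and 590 from neither. The number of cytosines with a value stood in for depth, which the percents do not give. It ran from 800578 to 1673284 in F0 and from 510212 to 1365744 in F1 sperm. The share of these values that only MspI reads reach ran from 43.1% to 61.4% in F0 libraries. In F1 it was 49.2%, 13.7%, 6.00%, 55.9%, 44.4% and 30.1%, so that F1 libraries 2 and 3 (libraries are numbered by column order) held few MspI values. The headings of all F0 sperm columns begin with 1 number and those of all F1 sperm columns with another. The labels do not say what this number stands for, and it cannot be told apart from generation.

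Single CpGs changed most sharply, and their surroundings are printed first (GRCm38/mm10, plus strand, with the measured CpG in capitals and 25 bases on either side). The first set holds the 3 X cytosines with the smallest p, which read close to 100% in every F0 library and 0% in every F1 library:
chrX:93254137-93254188: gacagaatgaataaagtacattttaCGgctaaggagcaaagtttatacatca
chrX:57055899-57055950: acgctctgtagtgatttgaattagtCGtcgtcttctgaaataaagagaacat
chrX:18133313-18133364: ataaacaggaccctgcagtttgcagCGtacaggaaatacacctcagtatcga

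The second set holds 3 autosomal CpGs that read near 50% on both strands in F1 sperm:
chr4:98704106-98704157: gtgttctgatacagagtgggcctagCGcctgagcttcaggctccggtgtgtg
chr10:28524513-28524564: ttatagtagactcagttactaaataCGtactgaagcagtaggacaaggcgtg
chr3:34299370-34299421: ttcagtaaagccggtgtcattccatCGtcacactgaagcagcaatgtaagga

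The third set holds the 3 autosomal cytosines with the smallest p:
chr1:33469524-33469575: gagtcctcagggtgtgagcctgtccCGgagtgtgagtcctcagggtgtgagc
chr7:117572580-117572631: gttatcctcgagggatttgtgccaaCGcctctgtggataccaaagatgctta
chr8:41433902-41433953: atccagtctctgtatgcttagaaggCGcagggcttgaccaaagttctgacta

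The fourth set holds stretches of regions named further on, with every CpG in capitals whether or not it had a value. The mean over the measured cytosines rose in the first 4 stretches, near Sult2b1, Amd2, March1 and Katnal1, and fell across the last 2, near Nipal4 and Mtmr7:
Sult2b1, chr7:45742046-45742133: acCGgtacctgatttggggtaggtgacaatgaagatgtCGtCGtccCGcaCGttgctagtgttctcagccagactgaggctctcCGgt
Amd2, chr10:35485475-35485544: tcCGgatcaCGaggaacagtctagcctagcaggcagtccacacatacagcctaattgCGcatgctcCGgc
March1, chr8:66418021-66418102: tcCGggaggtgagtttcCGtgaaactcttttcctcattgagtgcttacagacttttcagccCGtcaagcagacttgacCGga
Katnal1, chr5:148748611-148748811: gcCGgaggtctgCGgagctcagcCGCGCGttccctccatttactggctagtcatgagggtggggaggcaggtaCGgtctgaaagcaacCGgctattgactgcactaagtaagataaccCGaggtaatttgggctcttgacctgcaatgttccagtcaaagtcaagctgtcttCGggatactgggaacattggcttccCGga
Nipal4, chr11:46176765-46176827: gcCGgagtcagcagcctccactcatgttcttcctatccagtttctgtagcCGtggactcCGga
Mtmr7, chr8:40603988-40604046: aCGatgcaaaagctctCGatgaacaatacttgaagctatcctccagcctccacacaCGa

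Imprinted and sperm gene promoters were checked first against the labelled tissue. Over 246 cytosines at the promoters of 17 maternally methylated imprinted genes, the level ran from 5.43% to 8.52% in F0 libraries and from 6.28% to 9.38% in F1 libraries, against 29.4% to 35.4% in brain. The 4 cytosines at the promoter of Tnp1, which encodes a transition protein of maturing sperm heads, had a median of 3.31% in F0, 5.00% in F1 and 80.8% in brain. Prm1, Prm2 and Tnp2 had no member cytosine. Upstream of Meg3, 2 cytosines of the paternally methylated region had a median of 98.9% in F0, 96.5% in F1 and 42.1% in brain. The windows upstream of H19 and Rasgrf1 had medians of 23.5% and 24.4% in F0, below the high level named for sperm, and 23.2% and 25.2% in F1. These medians mix low and high stretches. Of the 8 cytosines at H19, 6 formed a region of 0.948% in F0. The 29 at Rasgrf1 held a region of 16 cytosines at 0.459% and regions of 3 cytosines each at 82.9% and 97.4%. Over 5598 cytosines chosen for an F0 mean below 5% and a brain mean of 90% or more, F1 libraries read 4.63% to 5.37% and F0 libraries 1.29% to 3.94%, and sons of smoked sires read 4.55% to 7.18%. The part that DNA of other cells has in the results was not tested.

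The mean level over all members was lower in F1 than in F0 sperm. F0 libraries ran from 42.7% to 48.5% with a median of 46.6%, and F1 libraries read 40.8%, 47.8%, 46.1%, 43.5%, 41.97% and 37.4%. The groups overlapped, with means of 46.2% ± 2.01 (SD, n = 10) and 42.9% ± 3.76 (SD, n = 6). The difference of -3.30 points (percentage points) had an exact two-sided permutation p of 0.0352 and did not hold without every library. The exact permutation p was 0.0549, 0.0529 and 0.0547 without F0 library 1, 2 or 9, and 0.0796, 0.0639 and 0.110 without F1 library 1, 5 or 6, with differences of -3.05, -3.14 and -3.06 and of -2.88, -3.11 and -2.19 points. A mean over members compares different cytosines in each library. Over the 126547 members with a value in all 16 libraries, every F1 library (53.5% to 63.5%) lay below every F0 library (63.9% to 67.9%), with means of 58.7% ± 3.52 (SD, n = 6) and 66.5% ± 1.31 (SD, n = 10) and an exact permutation p of 0.00012, the smallest the permutations can give. Split by digest, a choice made after seeing the data, these members differed by 3.32 points for MspI reads and by -9.54 points for TaqαI reads (exact permutation p = 0.00012 each).

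Means over all members of a chromosome class differed in direction. Over 455922 autosomal members the difference was -3.30 points (exact permutation p = 0.0360, adjusted by Benjamini-Hochberg over 3 chromosome classes 0.0360). On the X, over 6442 members, F0 libraries read 56.6% ± 2.22 (SD, n = 10) and F1 libraries 51.9% ± 2.71 (SD, n = 6), a difference of -4.71 points (exact permutation p = 0.00200, adjusted 0.00300). On the Y, over 560 members, the F1 level was higher, at 55.8% ± 4.34 (SD, n = 6) against 47.5% ± 1.84 (SD, n = 10), a difference of 8.30 points (exact permutation p = 0.000500, adjusted 0.0015). F1 library 3, at 48.1% on the Y, lay within the F0 range of 45.1% to 50.98%, and the other F1 libraries, from 55.4% to 60.3%, lay above it. On autosomes and X the sign turned with the digest. The mean difference over autosomal cytosines was 1.46 points for MspI reads only and -10.0 points for TaqαI reads only. On the X it was 4.12 points (1027 members) and -6.50 points (4981 members), and on the Y 12.2 and 7.88 points. No test was made of these means.

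Among autosomal cytosines, the direction differed between level classes and between digests. Each class was tested on its own, and the difference between digests was not tested across all of them. Autosomal members with a value in all 16 libraries were grouped by their mean level in the smoked F0 libraries, which share no sample with the comparison. Cytosines of 90% and above that only MspI reads reach (n = 2455) were high in both generations, with 94.9% to 97.1% in F0 and 96.3% to 96.8% in F1. Their means of 96.5% ± 0.616 (SD, n = 10) and 96.6% ± 0.177 (SD, n = 6) differed by 0.103 points (exact permutation p = 0.804, adjusted over 8 classes 0.804). This class held changes in both directions. Its 1770 cytosines inside the MspI site rose from 96.6% ± 0.684 (SD, n = 10) to 97.6% ± 0.231 (SD, n = 6), by 1.03 points (exact permutation p = 0.001, not adjusted). Its 685 inner cytosines, outside the cut site, fell from 96.3% ± 0.509 (SD, n = 10) to 94.0% ± 0.274 (SD, n = 6), by 2.30 points (exact permutation p = 0.00012, not adjusted). The groups overlapped for neither. Cytosines of 90% and above that only TaqαI reads reach (n = 59507) fell from 95.7% ± 0.890 (SD, n = 10) to 83.8% ± 4.76 (SD, n = 6). F0 libraries ran from 93.8% to 96.6% with a median of 95.9%. The F1 libraries read 85.4%, 82.4%, 76.1%, 89.96%, 86.8% and 82.2%, all below the F0 range (exact permutation p = 0.00012, the smallest the permutations can give, adjusted 0.00033). The lowest of these belonged to F1 library 3, which had the smallest share of MspI values, and the highest to F1 library 4, which had the largest share, and the part of this share in the result was not tested.

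**Figure D1:**
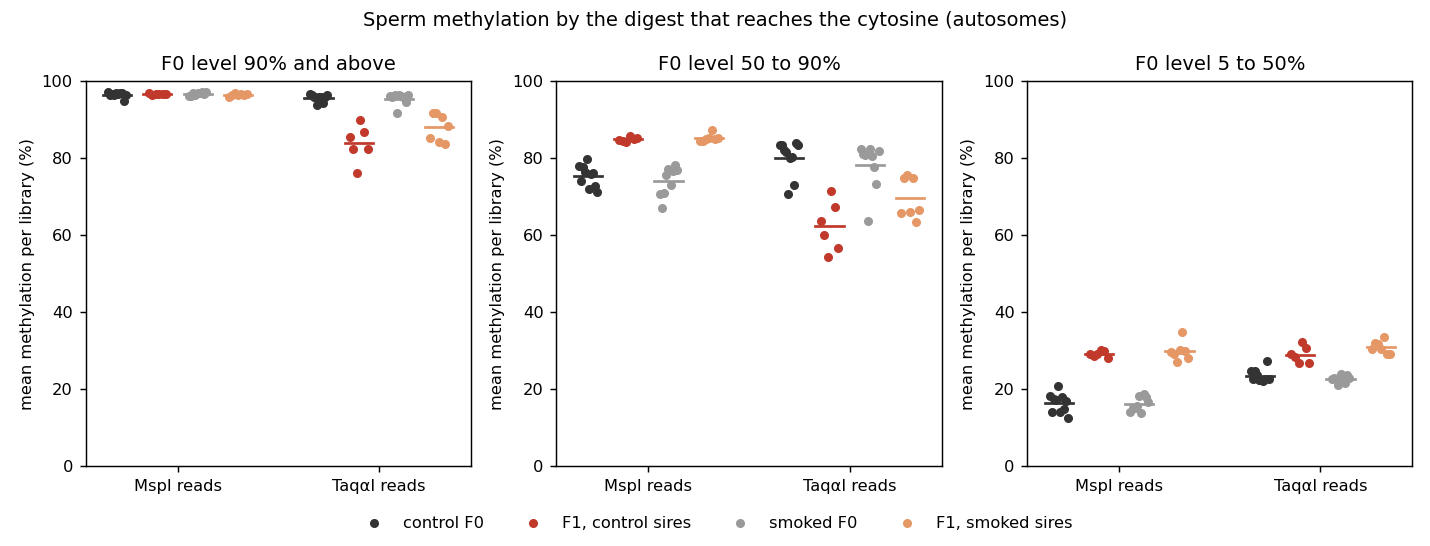
Mean methylation per library (%, y axis) of autosomal cytosines with a value in all 16 libraries, by digest (x axis) and by level class set in the smoked F0 libraries (panels, titled by F0 level). Points are libraries and lines are group means of control F0 (n = 10), F1 of control sires (n = 6), smoked F0 (n = 9) and F1 of smoked sires (n = 7). At 90% and above, F1 libraries of control sires lie at 76.1% to 89.96% for TaqαI reads and at 96.3% to 96.8% for MspI reads.

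MspI-read cytosines of intermediate level rose. Those of 50 to 90% (n = 684) read 71.2% to 79.8% in F0 and 84.3% to 85.7% in F1 libraries, with means of 75.4% ± 2.78 (SD, n = 10) and 84.9% ± 0.537 (SD, n = 6). Those of 5 to 50% (n = 1728) read 12.4% to 20.7% in F0 and 28.2% to 30.1% in F1, with means of 16.3% ± 2.49 (SD, n = 10) and 29.2% ± 0.728 (SD, n = 6). The groups of neither class overlapped, and each exact permutation p was 0.00012 (adjusted 0.00033). Cytosines under 5% were slightly higher in F1, with overlap. MspI-read ones (n = 5872) went from 1.51% ± 0.568 (SD, n = 10) to 2.56% ± 0.147 (SD, n = 6), with an exact permutation p of 0.0015 (adjusted 0.002). TaqαI-read ones (n = 14616) went from 1.59% ± 0.602 (SD, n = 10) to 2.21% ± 0.152 (SD, n = 6), with an exact permutation p of 0.0300 (adjusted 0.0343). Of these, cytosines of the TaqαI site differed by 1.54 points (exact permutation p = 0.00187, not adjusted). Inner ones differed by 0.0548 points (exact permutation p = 0.799, not adjusted). F1 libraries 2 and 3, sparse in MspI values, read 84.32% and 84.25% in the 50 to 90% class, close to the other F1 libraries. In the classes set instead by the sons of smoked sires, over all members, the rises were 16.1 points at 50 to 90% and 5.71 points at 5 to 50% (exact permutation p = 0.00012 each, the smallest possible). With these classes the MspI-read cytosines of 90% and above also rose, by 3.19 points with no overlap (exact permutation p = 0.00012). TaqαI-read cytosines of 90% and above differed by -3.90 points with overlap (exact permutation p = 0.0004), a smaller difference than the -11.9 points of the classes set by smoked F0. Those of 50 to 90% and 5 to 50% differed by -14.8 and -19.8 points with no overlap. The size of a difference thus changed with the libraries that set the classes. So did the call for MspI-read cytosines of 90% and above, for those under 5% (exact permutation p = 0.0212 with classes set by smoked F0 and 0.688 with the other), and for TaqαI-read cytosines of 5 to 50%, which over all members differed by -2.38 points in the classes set by smoked F0 (exact permutation p = 0.208). The call for TaqαI-read cytosines under 5% did not hold over all members. They differed by 0.555 points in the classes set by smoked F0 (exact permutation p = 0.0759). With the other classes the direction turned, at -0.456 points (exact permutation p = 0.211). The plot of levels by digest shows the MspI-read rises at 50 to 90% and 5 to 50% beside the levels of the sons of smoked sires.

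TaqαI-read cytosines of 50 to 90% (n = 20533) went the other way, from 80.1% ± 4.62 (SD, n = 10) to 62.3% ± 6.496 (SD, n = 6), with an exact permutation p of 0.00025 (adjusted 0.0005). The groups overlapped, since F0 libraries reached down to 70.7% and F1 libraries up to 71.6%, and without F0 libraries 5 and 8 the lowest F0 library read 79.9%. TaqαI-read cytosines of 5 to 50% (n = 9928) read 23.5% ± 1.61 (SD, n = 10) and 28.9% ± 2.17 (SD, n = 6), a rise with an exact permutation p of 0.00037 (adjusted 0.0006). Over all members of that class, each library with its own cytosines, the means were instead 24.1% and 21.7%, so the direction turned with the choice of cytosines. In sons of smoked sires the TaqαI-read class of 90% and above ran from 83.7% to 91.7%, and the MspI-read class from 95.9% to 96.9%. The smoked F0 libraries set these classes, so their own levels are no second look.

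CpGs with a strand in each digest allow a comparison at nearly the same place. Each mean took the cytosines with a value in the library, so the CpGs behind it can differ between strands and libraries. At 25 CpGs of 90% and above with 1 strand read from MspI and the other from TaqαI, the MspI strand read 96.6% ± 3.18 (SD, n = 10) in F0 and 97.0% ± 0.557 (SD, n = 6) in F1, with an exact permutation p of 0.748. The TaqαI strand of these CpGs read 93.2% ± 4.52 (SD, n = 10) and 84.8% ± 2.16 (SD, n = 6), with an exact permutation p of 0.0021. In another class of such CpGs both strands moved alike in sign. At 202 CpGs of 5 to 50% both strands rose, by 4.02 points on the MspI strand and 2.53 points on the TaqαI strand (exact permutation p = 0.008 and 0.0036). At 62 CpGs of 50 to 90% they differed by 2.37 and -3.71 points (exact permutation p = 0.456 and 0.245), and at 2045 CpGs under 5% by -0.072 and -0.217 points (exact permutation p = 0.998 and 0.963). Within 100 bp of each other, 174 MspI-read cytosines of 90% and above differed by 0.163 points (exact permutation p = 0.591) and 192 TaqαI-read cytosines of that level by -6.71 points (exact permutation p = 0.0002). Differences were also set against CpG density within 100 bp on either side, over all members of each class and with no test. Among TaqαI-read cytosines of 90% and above the difference was -15.8 points where the cytosine's CpG was the only one and -8.31 points with 10 or more CpGs, and among MspI-read cytosines of 5 to 50% it was 23.8 and 8.38 points. TaqαI-read cytosines of 50 to 90% also kept 1 order, from -30.7 points with 1 CpG to -6.28 points with 10 or more. The 3 remaining classes changed sign or had no order. TaqαI-read cytosines of 5 to 50% went from -12.9 points with 1 CpG to 4.07 points with 10 or more, and MspI-read cytosines of 90% and above from 1.55 to -0.708 points. MspI-read cytosines of 50 to 90% ran from 13.9 down to 7.93 points with 5 to 9 CpGs and back to 9.31 points with 10 or more.

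Single cytosines were tested with limma on the percents, with Benjamini-Hochberg adjustment over all 462924 members. The test called 92953 members at an adjusted p below 0.05, which was 20.1% of those tested, with 73442 lower in F1 (15.9%) and 19511 higher (4.21%). Among MspI-read members 8968 were called (5.00%), of which 7481 were higher and 1487 lower. In a fit of these members alone, a choice made after seeing the data, 5688 were called (3.17%), with 4636 higher and 1052 lower. TaqαI-read members gave 81103 calls (32.2%), of which 70556 were lower and 10547 higher. By F0 level, the rises of MspI-read members came mostly from intermediate cytosines: 3939 of 13676 members of 5 to 50% and 1099 of 7658 of 50 to 90% were higher, against 2343 of 127657 under 5%. On the X, 1889 of 6442 members were called (29.3%), and on the Y 205 of 560 (36.6%), of which 184 were higher.

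Sons of smoked sires were compared with smoked F0 males, which were likewise not their fathers, and share no library with the control comparison. Of 416610 members with at least 4 values in both of these groups, limma called 48996 (11.8%). Shared calls with the same direction numbered 36874, which was 44.7% of the 82463 control calls among these members and 75.3% of the calls in the smoked comparison, and 32 shared calls had opposite directions. Among MspI-read members the shared calls were 62.9% and 67.6%. The signs of the differences matched for 96.4% of these 82463 control calls. The share over all 416610 members is not given here. Their mean difference was negative in both, at -4.05 points in the control and -2.06 points in the smoked comparison. Both comparisons share the breeding, the numbers that begin the column headings and the reference genome.

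Some autosomal cytosines that were methylated in F0 sperm lay near 50% in F1 sperm. Of 156325 autosomal members with an F0 mean of 90% or more, 8826 (5.65%) had an F1 mean of 40 to 60%, here called mid-level. Counted in single F1 libraries, the share ran from 3.04% to 14.5%, and 2034 of the 8826 lay at 30 to 70% in every F1 library with a value. In smoked F0 libraries, 0.0019% of these cytosines lay in that window. Of MspI-read inner CpGs 501 of 11939 cytosines (4.196%) were mid-level, against 54 of 18083 cytosines inside the MspI site itself (0.299%). A fragment is cut only where the site is present. Inner CpGs of TaqαI reads were mid-level at 8.04% and those of the TaqαI site at 6.18%. By bins of 5 points, MspI-read inner CpGs had a second maximum, with 1.27% of them at 45 to 50% against 0.310% at 65 to 70%. TaqαI-read inner CpGs ran level, with 2.00%, 2.08%, 1.92% and 2.03% in the 4 bins from 40 to 60% and 3.63% at 65 to 70%. All TaqαI-read cytosines rose from 1.31% at 40 to 45% to 2.96% at 60 to 65%.

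**Figure D2:**
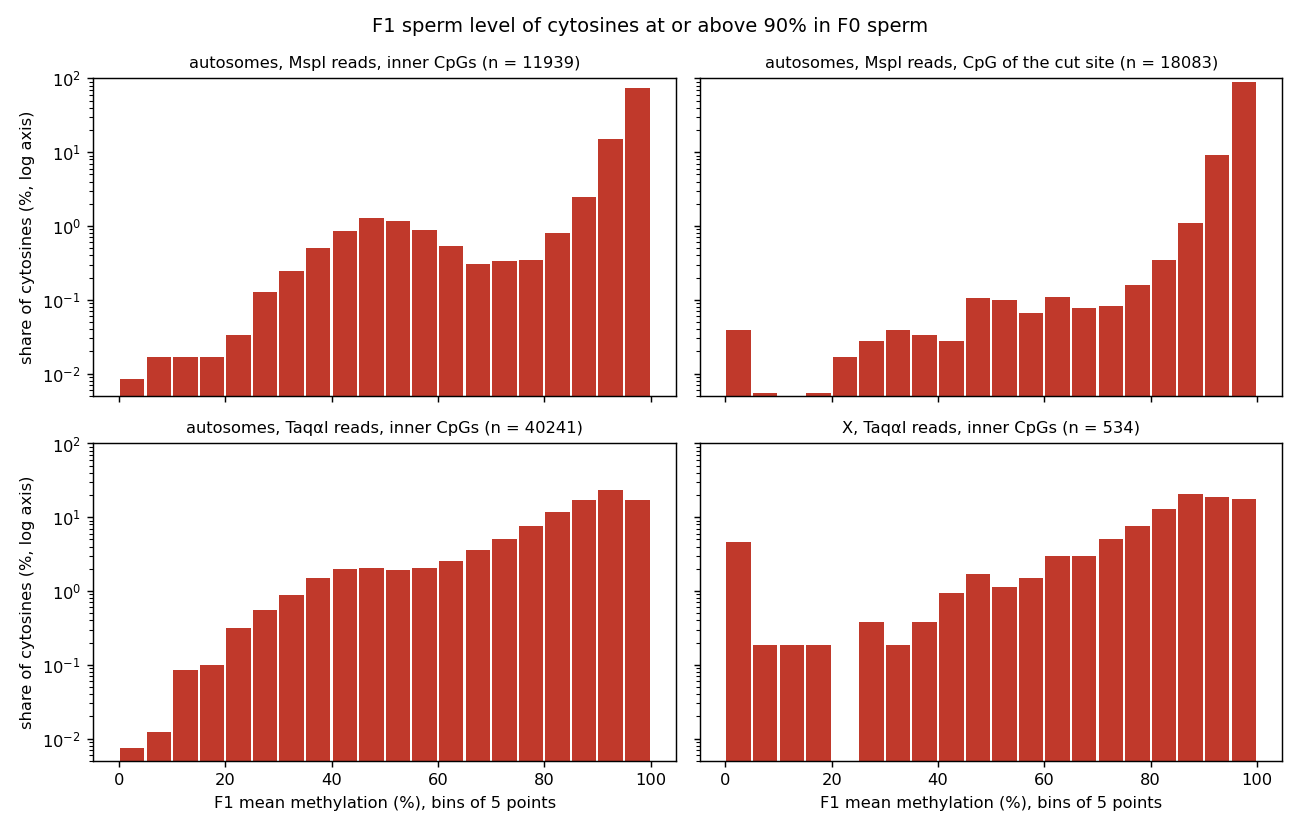
Share of cytosines (%, log y axis) by their mean F1 methylation (x axis, bins of 5 points) among cytosines with an F0 mean of 90% or more, in 4 panels by chromosome, digest and place of the CpG, with the number of cytosines in each title. MspI-read inner CpGs have a second maximum between 45 and 55%, and TaqαI-read inner CpGs of the X have a separate bar at 0 to 5% that holds 4.68% of them.

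The mid-level class was also present in other sons. Of the 525 MspI-read mid-level cytosines with a value in sons of smoked sires, 410 (78.1%) had a mean of 40 to 60% there too, with a median of 50.4%. The median was 97.0% in smoked F0 sperm and 45.0% in F1 brain, where 279 of 547 (51.01%) lay at 40 to 60%. Of TaqαI-read mid-level cytosines, 2577 of 6746 (38.2%) lay at 40 to 60% in sons of smoked sires, with a median of 62.9% there and of 84.2% in brain.

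Neighbours of mid-level cytosines were then examined by distance. For MspI-read mid-level cytosines, the cytosine on the other strand of the same CpG was also mid-level in 42 of 57 cases (73.7%), against 16 of 2062 (0.776%) for other MspI-read cytosines of the same F0 level. At 2 to 10 bp, 28 of 219 (12.8%, against 2.71% beside other such cytosines) were mid-level and their median was 97.2%. TaqαI-read mid-level cytosines had mid-level neighbours, with 640 of 1342 (47.7%) at 2 to 10 bp and 1338 of 3029 (44.2%) at 26 to 50 bp, against 3.11% and 3.17% beside other TaqαI-read cytosines. On the other strand of the same CpG the count was 135 of 468 (28.8%), against 3.64%. Cytosines on 1 read share its molecules, so that neighbours within 50 bp are not independent measurements.

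**Figure D3:**
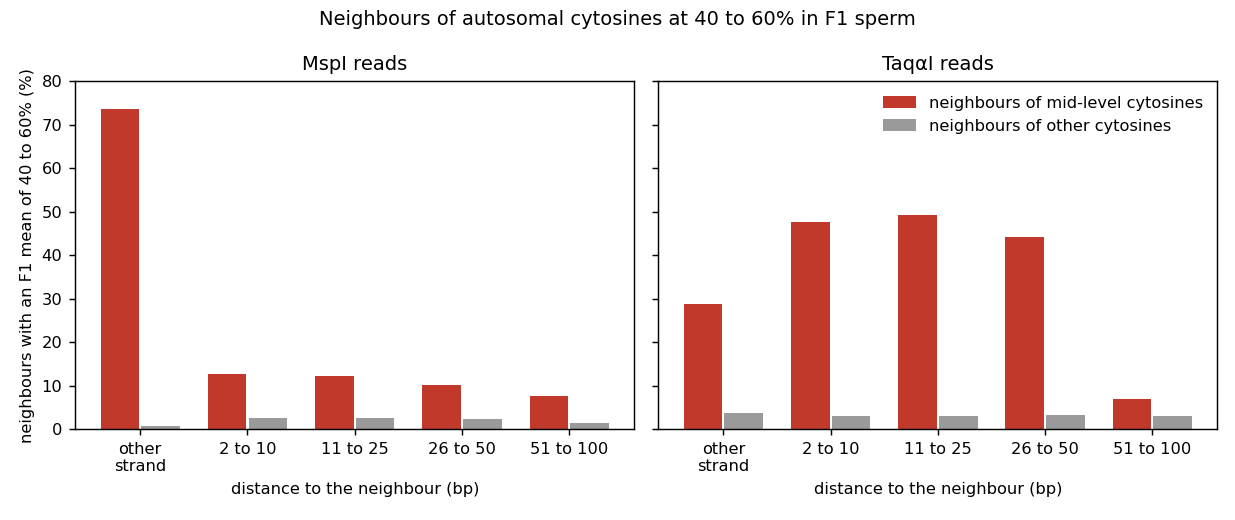
Share of neighbouring cytosines with an F1 mean of 40 to 60% (%, y axis) by distance (x axis, bp; the first pair of bars is the other strand of the same CpG) for MspI and TaqαI reads. Dark bars are neighbours of mid-level cytosines and pale bars neighbours of other autosomal cytosines with an F0 mean of 90% or more. With MspI reads 73.7% of other strands are mid-level and 12.8% of cytosines at 2 to 10 bp, and with TaqαI reads 28.8% and 47.7%.

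The CpG on chromosome 4 printed above is of this kind. At position 98704131, on the plus strand, F0 libraries ran from 96.9% to 100% with a median of 99.6%, and the F1 libraries read 54.2%, 33.3%, 57.1%, 41.4%, 43.8% and 48.4%. On the minus strand, at 98704132, F1 libraries ran from 33.3% to 57.9%, and F0 libraries from 77.8% to 100%. The next measured cytosine on the plus strand, 42 bp away, read 99.3% in F0 and 98.0% in F1. The means in sons of smoked sires were 47.2% and 54.5%, and in brain 53.1% and 40.3%. The CpG on chromosome 10 read 95.6% and 97.8% in F0 and 47.3% and 45.4% in F1 on its strands, and the CpG on chromosome 3 read 98.3% and 97.5% in F0 and 42% and 48.3% in F1. Brain libraries read 11.98% and 15.4% at the CpG on chromosome 10, below the F1 sperm level. All 6 cytosines passed limma, with adjusted p from 6.31e-09 to 1.39e-06, and the groups did not overlap at any of them. These CpGs were chosen after their values were seen, so the p and the lack of overlap only describe them.

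Methylated X cytosines had a class near 0% in F1 sperm. Of 2300 X members with an F0 mean of 90% or more, 40 (1.74%) had an F1 mean of 20% or less, and 35 of these were at or below 20% in every F1 library with a value. The share was 0.128% on autosomes (200 of 156325) and 0 of 63 on the Y. In sons of smoked sires 35 of the 36 with a value were also at or below 20%, in brain 32 of 37 were, and in smoked F0 sperm 0 of 40. TaqαI-read inner CpGs held 28 of the 40, which was 5.24% of 534, against 7 of 1507 (0.464%) at CpGs of the TaqαI site itself. Another 120 X cytosines (5.22%) lay at 40 to 60%, against 5.65% on autosomes. Of these, 118 were TaqαI-read, which was 5.78% of 2041, against 6.81% on autosomes. MspI-read ones were 1 of 152 (0.658%), against 1.85% on autosomes, and MspI-read inner CpGs 0 of 53, against 4.196%.

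At chrX:93254162, F0 libraries ran from 96.0% to 100% with a median of 98.2%, and all 6 F1 libraries read 0%. The difference of -98.1 points (SE 0.672) had an adjusted limma p of 8.59e-19. The cytosine at chrX:57055924 had an F0 mean of 95.9% ± 1.79 (SD, n = 10) and the one at chrX:18133338 97.4% ± 1.92 (SD, n = 10), and each read 0% in all 6 F1 libraries. Sons of smoked sires read 0% at all 3, and brain 0%, 0% and 0.303%. The nearest other measured cytosines on the same strand, at 26, 3 and 24 bp, read 89.3%, 68.3% and 86.2% in F1.

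Among autosomes, the cytosine at chr1:33469549, inside an MspI site, read 100% in the 5 F0 libraries with a value and 0% in the 5 F1 libraries with a value. The next measured cytosine on its strand, 33 bp away, read 100% in F0 and 97.9% in F1. The cytosines at chr7:117572605 and chr8:41433927 fell from 97.7% ± 0.835 (SD, n = 10) to 34.6% ± 2.29 (SD, n = 6) and from 97.4% ± 1.23 (SD, n = 10) to 31.9% ± 2.66 (SD, n = 6). Brain read 42.5% and 35.8% at these, and their adjusted limma p were 3.89e-16 and 3.75e-15.

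Gains at single cytosines were examined in the same way. Of 127022 autosomal MspI-read members with an F0 mean of 5% or less, 180 (0.142%) had an F1 mean of 40% or more. Of 152 MspI-read members 2 to 50 bp from them, 139 (91.4%) had an F1 mean of 25% or more, against 0.445% of all such low cytosines. These neighbours had a median of 3.93% in F0 and 50.4% in F1. The gained cytosines had a median of 49.8% in sons of smoked sires (n = 167), 3.16% in smoked F0 sperm (n = 173) and 73.6% in brain (n = 154).

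Where both strands of a CpG were members (38040 CpGs), they tended to move together. For 8034 cytosines called lower, the other strand had the same sign in 91.5%, against 60.5% of all pairs with a negative difference. Most of them, 7518, were on TaqαI-read CpGs, where the shares were 92.2% and 74.7%. On MspI-read CpGs there were 163, with shares of 85.9% and 53.6%. For MspI-read CpGs the falls had a median of -39.2 points on the called strand and -35.1 points on the other. For TaqαI-read CpGs the medians were -24.2 and -14.7 points. Rises on MspI-read CpGs had the same sign on the other strand in 89.2% of 860 cases, against 25.3% of all such pairs with a positive difference.

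Positions without any value in F1 sperm were counted among those well covered in F0. Of cytosines seen in at least 8 F0 libraries, 9.63% of 832369 on the autosomes had no value in any F1 library, and 26.5% of 16595 on the X and 14.4% of 1089 on the Y. In sons of smoked sires these shares were 6.82%, 25.5% and 11.9%. Since these positions were chosen for their F0 values, the shares can show a loss only, and positions seen in F1 but not in F0 were not counted.

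Members at most 100 bp apart were joined into regions, and those of 3 or more cytosines that spanned over 50 bp were kept. Of 31176 regions, limma called 9931 (31.9%), of which 7697 (24.7%) were lower in F1 and 2234 (7.17%) higher. A rule by size after the study's methods, which has no test, was met by 10693 regions (34.3%). It asks that the region's mean and at least 1 in 3 of its cytosines change by more than 5 points. Within 1000 bp of the start of a protein-coding gene 486 of 9188 were called (5.29%), against 9445 of 21988 elsewhere (43.0%), and their median F0 levels were 0.849% and 93.1%.

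Regions were also built from each digest alone. In a fit of MspI-read cytosines alone, 879 of 10545 regions were called (8.34%), with 675 higher and 204 lower. The 675 rises had median levels of 12.7% in F0 and 36.9% in F1, and a median of 63.3% in brain (n = 673). The 204 falls had medians of 96.5% and 80.7%, and brain a median of 69.0% (n = 203). These regions were chosen by their F0 and F1 values, so their order relative to brain was not compared. Of the rises, 7 went from below 10% in F0 to above 60% in F1. In the fit of TaqαI-read cytosines alone, 7380 regions were lower and 992 higher among 15611. Sons of smoked sires had the same sign in 655 of 669 MspI-read rises and in 197 of 201 falls, and the share over all MspI-read regions is not given here.

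Among the named regions with a gene start within 1000 bp, the largest rises lay at Sult2b1, Sh3d19 and Tacc2. Sult2b1 encodes a sulfotransferase that acts on cholesterol, and the region at chr7:45742048-45742131 lies in its coding sequence. F0 libraries ran from 16.9% to 43.7% with a median of 29.6%, and the 5 F1 libraries with a value read 69.8%, 100%, 75.4%, 87.0% and 67.9%. The rise was 50.4 points (SE 5.27, adjusted limma p = 3.76e-06). The naming rule took only regions that passed limma without overlap between the groups, so at named regions neither is a separate result. Sh3d19, an adaptor protein gene, rose from 10.8% ± 2.13 (SD, n = 10) to 54.7% ± 5.53 (SD, n = 5) at chr3:86085139-86085276, in coding sequence. Tacc2, whose product binds microtubules, rose from 6.14% ± 3.40 (SD, n = 10) to 47.1% ± 19.4 (SD, n = 5) at chr7:130692496-130692583. The wide F1 spread at Tacc2 ran from 24.7% to 73.2%.

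The other promoter regions chosen for their rise were those of Samd11 (31.5% to 69.2%), Kcne3, a potassium channel subunit (25.6% to 61.5%), Jakmip1 (22.6% to 53.3%), Cxcr5, a chemokine receptor of B cells (19.2% to 49.8%), and Scgb2b19, a secretoglobin (44.3% to 74.4%). Their adjusted limma p ran from 5.78e-08 to 0.00193. At Cxcr5, F1 library 2 read 84.7% and the other F1 libraries 31.2% to 45.0%. Brain read 82.1% at Cxcr5, 95.5% at Sh3d19 and 2.23% at Tacc2.

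The 8 promoter regions with the largest falls were read mostly by TaqαI. Cfap61, needed for the sperm flagellum, had the largest, at chr2:146045262-146045342 in an exon. F0 libraries ran from 59.0% to 80.5% with a median of 70.9%, and F1 libraries read 4.76%, 19.2%, 31.5%, 0% and 6.35%. The fall of 58.8 points (SE 4.72) had an adjusted limma p of 2.82e-07, and brain read 9.21%. Smoked F0 libraries read 41.6% to 63.3% there. Eya1, a regulator of organ development, fell from 92.2% ± 4.23 (SD, n = 10) to 51.6% ± 19.6 (SD, n = 5), with F1 libraries from 26.5% to 78.2%. Adam18, a sperm surface protein gene, fell from 82.5% ± 8.21 (SD, n = 10) to 48.3% ± 10.2 (SD, n = 6), and Csnk2a2, a casein kinase subunit gene that sperm head shaping needs, from 90.2% ± 7.25 (SD, n = 10) to 56.7% ± 13.8 (SD, n = 6). The other regions were those of Svil (93.8% to 53.1%), Tspan5 (87.3% to 48.2%), Olfr641 (84.9% to 46.6%) and Gm15737 (83.2% to 49.5%), and TaqαI read 3 of the 5 cytosines at Gm15737 and all cytosines of the other 7 regions. Smoked F0 libraries and sons of smoked sires overlapped at Svil (75.3% to 97.5% and 49.1% to 84.4%), Eya1, Tspan5, Adam18 and Csnk2a2. They did not overlap at Cfap61, Olfr641 and Gm15737.

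Among regions named over all members, the autosomal ones away from gene starts had larger changes than those near a start. The naming rule took fewer regions from a larger pool there, so this order is no separate result. Before the minimum of 5 libraries, 4238 regions elsewhere and 167 near a start met its other parts. Over all called regions, median rises were 13.7 points elsewhere and 7.80 points near a start, and median falls -12.6 and -11.6 points. The largest rise lay 102370 bp from the start of Jun, the nearest, at chr4:95154592-95154657 in introns of Junos and Gm28096. F0 libraries ran from 4.63% to 12.4%, and the F1 libraries with a value read 81.8%, 87.0%, 83.6%, 87.4% and 91.3%. The rise was 78.7 points (SE 1.44, adjusted limma p = 1.63e-13), and sons of smoked sires read 82.3% to 93.3%. The region nearest to Amd2, a gene of polyamine synthesis, rose from 19.9% ± 8.63 (SD, n = 10) to 92.7% ± 4.48 (SD, n = 5) at chr10:35485477-35485542, between genes. In an intron of March1, which encodes a ubiquitin ligase of antigen-presenting cells, the region at chr8:66418023-66418100 had a value in all 16 libraries. F0 libraries ran from 3.16% to 7.92%, and F1 libraries read 70.7%, 58.8%, 76.8%, 72.5%, 83.8% and 76.6%. An intron of Lingo2 rose from 11.8% to 80.4%. Brain read 57.5% near Jun and 93.8%, 94.2% and 93.4% near Amd2, March1 and Lingo2.

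The largest falls away from gene starts were read by TaqαI and varied among F0 libraries. An intron of Mtmr7, a phosphoinositide phosphatase gene, fell from 81.8% ± 20.0 (SD, n = 10) to 12.8% ± 8.94 (SD, n = 6), with F0 libraries 5 and 8 at 49.4% and 47.2% and the highest F1 library at 26.1%. An intron of Ntrk2, the receptor of the growth factor BDNF, fell from 91.0% ± 14.04 (SD, n = 8) to 25.5% ± 8.40 (SD, n = 5). Regions nearest to Kcnrg and Adgrl2 fell from 72.9% to 11.1% and from 84.3% to 23.5%, with F0 library 5 the lowest in both, at 41.1% and 54.7%. Brain read 84.6% at Mtmr7, 50.4% at Ntrk2 in the 2 brain libraries with a value, 95.2% at Kcnrg and 96.5% at Adgrl2. Smoked F0 libraries and sons of smoked sires overlapped at Mtmr7 (43.4% to 100% and 18.6% to 55.4%), Kcnrg and Adgrl2. At Ntrk2 only 1 library of sons of smoked sires had a value.

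On the X, regions nearest to Tex13c3, Chrdl1, a BMP antagonist, and Bcor, a corepressor, fell from 90.9% to 44.4%, from 87.2% to 42.8% and from 95.1% to 53.8%. Regions nearest to Vmn2r121, Rai2 and Tmsb4x rose from 48.8% to 89.3%, from 27.9% to 65.4% and from 49.3% to 86.0%. Adjusted limma p ran from 1.69e-11 to 0.00052 at these 6, for which the naming rule asked for no overlap between the groups. These regions were 12593 to 276992 bp from the gene start they are named by.

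Since falls were mostly TaqαI-read, the naming rule was also applied to the fit of MspI-read cytosines alone, a choice made after seeing the data. It left 258 regions, against 3824 over all members. Of falls near a gene start it named Hmx2, a homeobox gene (75.9% to 53.7%) and Prkca, a protein kinase C gene (96.9% to 77.8%). New rises were at Arhgap27 (4.68% to 37.3%), Klra3, a natural killer cell receptor (25.8% to 55.6%), Vasp, a regulator of actin (0.890% to 30.5%), and Morn3 (17.7% to 46.3%). Away from starts the regions nearest to Nipal4, Kif3a, Tmem18 and Pwwp2b fell from 96.2% to 47.9%, from 68.7% to 22.2%, from 84.3% to 40.1% and from 90.6% to 47.2%. Smoked F0 libraries ran from 12.5% to 100% at Nipal4. They overlapped with sons of smoked sires there, at Prkca and at Tmem18, but not at Hmx2, Kif3a or Pwwp2b. Near Katnal1, 179819 bp from its start, F0 libraries ran from 1.66% to 6.04% and the 5 F1 libraries with a value from 58.7% to 79.9%, and near Rpl3 F0 libraries ran from 1.92% to 15.3% and the 6 F1 libraries from 48.3% to 80.6%. On the X this fit named Tmem164 as its fall (84.1% to 48.9%), where smoked F0 libraries and sons of smoked sires overlapped. It named Mageb1 as a further rise (20.0% to 51.3%).

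**Figure D4:**
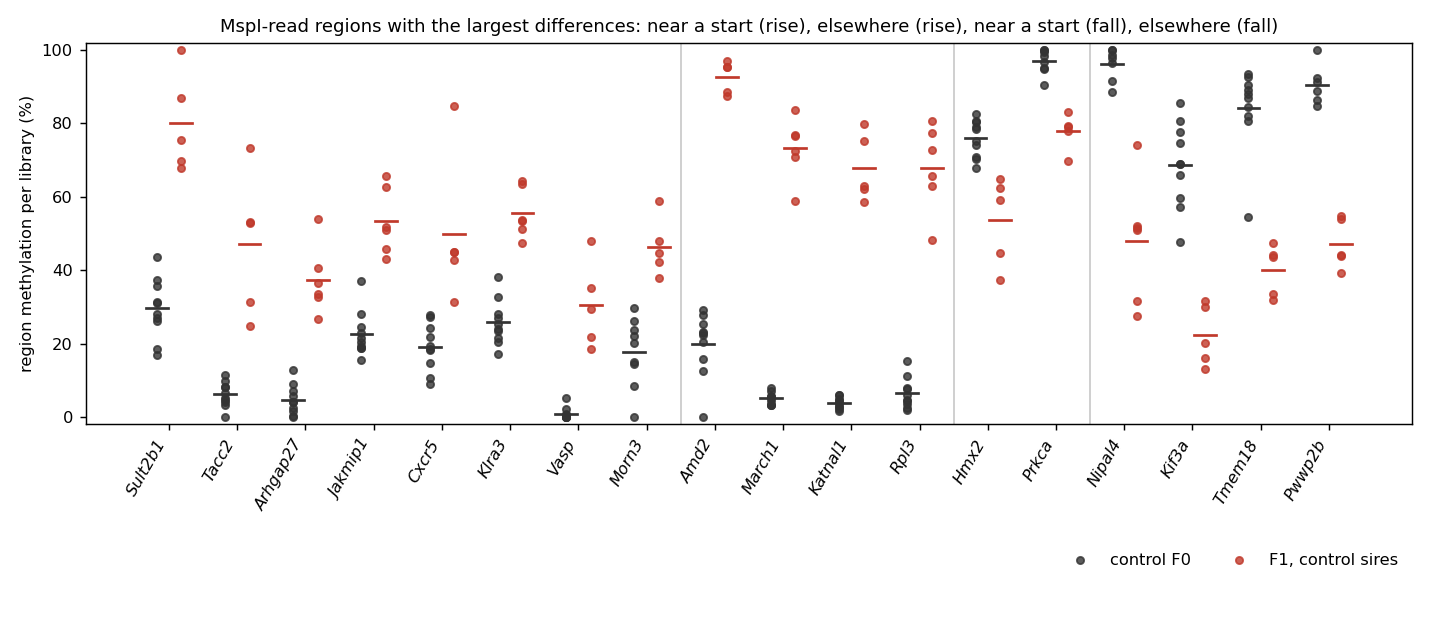
Region methylation per library (%, y axis) for the autosomal regions that the text names from the fit of MspI-read cytosines alone (x axis, nearest gene), with control F0 libraries in dark and F1 libraries of control sires in red, and lines at the means. Grey lines part rises near a gene start, rises elsewhere, falls near a start and falls elsewhere. At March1 F0 libraries sit at 3.16% to 7.92% and F1 libraries at 58.8% to 83.8%.

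No region of the imprinted lists passed the test. Of 19 regions at the promoters of 14 maternally methylated imprinted genes, limma called 0, with a median difference of -0.0709 points against -0.366 over all regions. It called 0 of 4 regions in windows upstream of H19 and Rasgrf1, which were taken to hold paternally methylated control regions. The share of all regions called was 31.9%. It was 5.29% within 1000 bp of a protein-coding start, where 15 of the 19 regions lay, and 43.0% elsewhere, where the other 4 and the 4 upstream regions lay. At Snrpn, F0 read 2.08% ± 1.61 (SD, n = 10), F1 1.97% ± 2.89 (SD, n = 6) and brain 30.3%. At Peg3 the values were 0.790%, 0.939% and 27.2%, at Plagl1 1.11%, 1.03% and 37.3%, at Zrsr1 1.16%, 0.813% and 28.3%, at Mcts2 0.559%, 0.241% and 19.02%, and at Peg13 1.05%, 1.08% and 35.7%. Peg10 and Sgce share a region, where F0 libraries had a median of 0.445%, F1 a mean of 0.285% and brain 25.96%. F0 library 1 read 20.1% there and set the F0 mean of 2.48%. Grb10, a growth inhibitor, read 2.97% ± 0.788 (SD, n = 10) in F0 and 4.16% ± 0.405 (SD, n = 4) in F1. Its adjusted limma p was 0.0906, and its brain level was 37.3%.

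The imprinted cluster of Gnas gave 5 regions, with F0 levels of 0.792% to 2.13% and F1 levels of 0.225% to 1.94%. Nnat read 14.1% in F0, 15.4% in F1 and 56.2% in brain. The regions of Inpp5f (97.5% and 97.3%) and 1 of Slc38a4 (93.5% and 94.7%) were high in sperm, against the low level of the list, and the other Slc38a4 region read 4.14% and 3.36%. The regions of Impact read 1.38% and 3.51% (adjusted limma p = 0.144), and 0.770% and 0.512%. Upstream of Rasgrf1, regions read 82.9% and 81.4%, 97.4% and 94.6%, and 0.459% and 0.383% in F0 and F1, while brain read 37.1%, 10.4% and 1.30%. The region upstream of H19 read 0.948% and 1.17%, at 44383 bp from the nearest protein-coding start. The lists were chosen with earlier results of these data known, and a p above the threshold does not show that levels were equal.

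Promoters of germ cell genes were low in both generations. Limma called 0 of 12 regions of germline and meiosis genes, 0 of 10 of spermatid and sperm genes and 0 of 9 of the DNA methylation machinery. Of these regions 11, 9 and 9 lay within 1000 bp of a protein-coding start, where 5.29% of all regions were called, a share at which lists of this size can hold 0 calls. Hormad1, a meiotic chromosome protein gene, read 2.37% ± 3.15 (SD, n = 9) in F0 and 6.66% ± 9.89 (SD, n = 4) in F1, against 86.3% in brain, with 1 F1 library at 21.3%. Taf7l and Tex101 read 1.03% and 0.941% in F0, 2.11% and 2.33% in F1, and 93.2% and 92.1% in brain. Dnmt1, Dnmt3a and Dnmt3b, the DNA methyltransferases, had medians of at most 0.674% in F0 and 1.07% in F1. At Dnmt3a, F0 library 1 read 9.785% and set the F0 mean of 1.39%.

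Windows of the developmental lists cover all annotated transcript starts, so some regions lay over 1000 bp from a protein-coding start. Of 36 Hox regions 2 were called (5.56%), both higher, with 0 of 28 within that distance and 2 of 8 beyond it. Of all regions 5.29% were called within that distance and 43.0% beyond it. At Hoxc8 the level was 32.1% ± 3.85 (SD, n = 10) in F0 and 45.1% ± 7.81 (SD, n = 5) in F1. The adjusted limma p at Hoxc8 was 0.00222. Of 130 regions of other developmental transcription factors 2 were called (1.54%), both among the 116 within that distance, Foxi3 lower (16.8% to 9.87%) and Foxs1 higher (8.75% to 15.6%). Among 183 regions of zinc finger genes 8 were called (4.37%), 4 higher and 4 lower, with 5 of 171 within that distance and 3 of 12 beyond it. Zfp422, Zfp663 and Zfp131 were lower, at 90.03% and 70.1%, 95.9% and 83.7%, and 96.4% and 88.8%, and all were TaqαI-read. Smoked F0 libraries and sons of smoked sires overlapped at Zfp422 (80.9% to 90.7% and 77.4% to 90.1%) and at Zfp663, but not at Zfp131.

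Olfactory and vomeronasal receptor genes, which lie in CpG-poor clusters, had calls in 30 of 57 regions (52.6%), 12 higher and 18 lower, with a median difference of -1.43 points. Within 1000 bp of a protein-coding start 7 of 21 were called, where 5.29% of all regions were, and beyond it 23 of 36, where 43.0% of all regions were. TaqαI read 44 of these regions, and 54.4% of all TaqαI-read regions were called. At Olfr1459, F0 libraries ran from 20.4% to 34.4% with a median of 23.3%, and F1 libraries from 78.8% to 83.0%, a rise of 56.2 points (SE 1.91, adjusted limma p = 1.50e-11). Olfr1155 and Olfr1156 share a region that rose from 23.9% ± 1.96 (SD, n = 10) to 50.4% ± 5.17 (SD, n = 6). Of 23 regions of major histocompatibility genes 2 were called (8.70%), both among the 11 over 1000 bp from a protein-coding start, where 43.0% of all regions were called, H2-Pa (2.69% to 7.80%) and H2-DMa (4.45% to 12.9%). Of 34 regions of clustered protocadherins, which give neurons their surface identity, 3 were called (8.82%), all higher and among the 18 over 1000 bp from such a start, where 43.0% of all regions were called, 1 of them a region that Pcdhga6, Pcdhga11 and Pcdhgb2 share (10.04% to 22.1%).

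**Figure D5:**
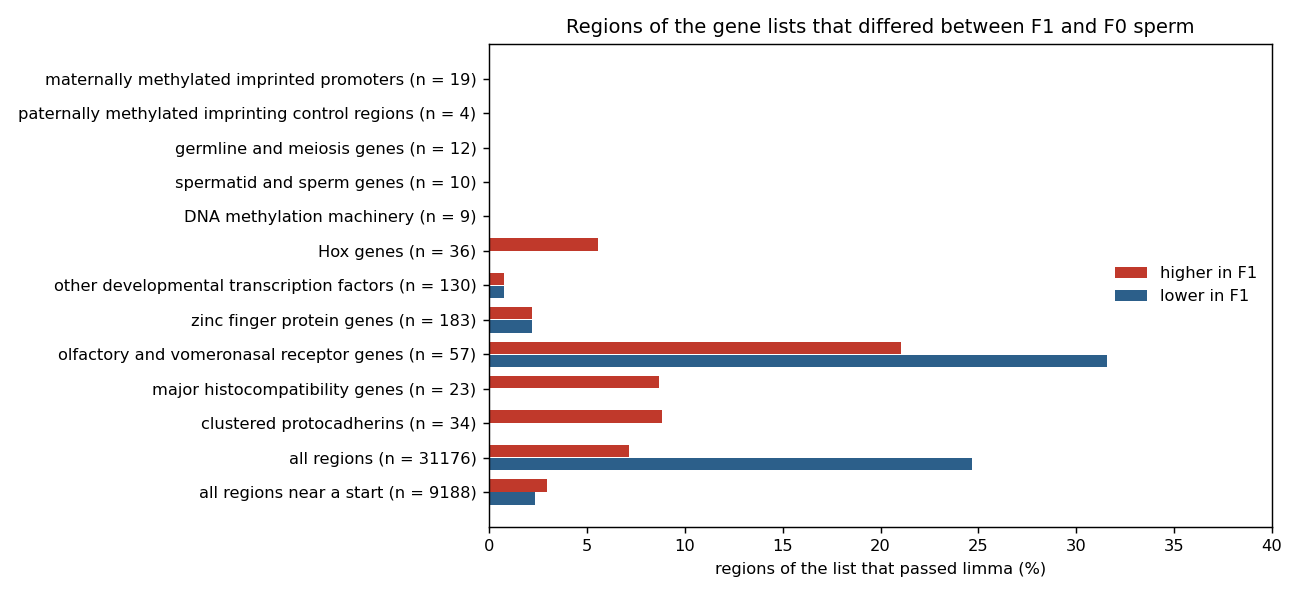
Share of regions called by limma (%, x axis) in each gene list (y axis, with the number of regions), higher in F1 in red and lower in F1 in blue, with all regions and all regions near a gene start in the bottom rows. The 5 imprinting, germ cell and DNA methylation lists have no bar, since 0 of their regions were called.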

How the data were processed

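DNAme was measured by RRBS, aligned by the authors to mm10 with Bismark (version not given in the sources used here). The deposited tables hold, per library, a methylation percent for each cytosine of a CpG, with no read counts. The study scored CpGs read more than 8 times, and whether the deposited percents were filtered so is unknown. The depth behind each percent is thus unknown, and its error enters only through the spread between libraries. Columns carry numbers that match no label, so each was assigned to its group and numbered by order (0 columns of values unused). Members and gene lists were chosen with earlier results of these data known. Libraries are separate samples by their labels, and p-values measure the spread between them.

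A cytosine was MspI-read or TaqαI-read where a 50-base read on its own strand from a CCGG or TCGA site of the GRCm38 RefSeq assembly holds it. The strain label of 1 brain library conflicts with its title, which set its group. Genes came from GENCODE M21. Library means were compared by exact two-sided permutation tests. Cytosines and regions were tested with limma 3.58.1 (R 4.3.3) on the percents, adjusted by Benjamini-Hochberg, at a threshold of 0.05 (tested on simulated data). The simulated data gave both groups the F0 spread, and limma pooled the variance of the groups. In the regions of each digest alone, the median SD was 5.27 in F1 and 1.98 in F0 for TaqαI, and 1.13 and 1.32 for MspI. The simulation could not show what unequal spread does to the calls, and this was not tested. A region value was adjusted for the cytosines a library held, at least 50% of them, in 3 or more libraries of each group. A region was MspI-read or TaqαI-read where at least 80% of its cytosines were. Named regions passed limma and the rule by size, had 5 or more libraries per group and did not overlap. They were the 8 largest rises and falls within 1000 bp of a protein-coding start, the 4 and 4 elsewhere on autosomes and the 3 and 3 on the X. Single cytosines were the 3 with the smallest p on autosomes and on X. All imprinted genes of the list with a region, and up to 3 genes of each other list by p, were named. Of the regions the rule named in the fit of MspI-read cytosines alone, 1 is not reported here. The 3 mid-level CpGs and the stretches printed as sequence were chosen after their values were seen. Alternatives changed the minimum of libraries, joining distance, variance prior, scale, strands, weights, libraries and digest.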

Additional observations from a re-analysis of the deposited data

Results flagged for a closer look

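In groups of 4 to 10 libraries, the gap between the highest or lowest library and its nearest neighbour was set against the whole range of the group. Of 120 groups, 6 had a library that far apart, close to the 1 in 20 that chance gives. In F0 sperm, 1 library read 94.9% over MspI-read cytosines of 90% and above, where the next read 96.3%, and 1 read 27.2% over TaqαI-read cytosines of 5 to 50%, where the next read 24.7%. At Olfr641 the lowest F0 library read 69.0% and the next 83.7%. At Cxcr5 the highest F1 library read 84.7% and the next 45.0%. At Vasp the highest F0 library read 5.13% and the next 2.13%. Near Tmem18 the lowest F0 library read 54.6% and the next 80.7%.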

How the results depend on the processing

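No paired analysis was possible, since the F0 males measured were not the fathers of the F1 males. The columns of values also carry no replicate number. The difference in mean level was -3.03 points over every cytosine with a value (exact permutation p = 0.157) and turned to 3.32 points over MspI-read cytosines with a value in all 16 libraries (p = 0.00012, chosen after seeing the data). It was -7.80 points over cytosines with a value in all 16 libraries, -9.54 points for the TaqαI-read of these and -5.01 points with 1 value per CpG. Without 1 library at a time it ran from -4.27 to -2.19 points and kept its side of the threshold in 10 of 16. Called cytosines were 55846 of the 126547 with a value in all 16 libraries, a larger share than the 20.1% of all members. They were 5688 of 179195 for MspI-read cytosines alone (3.17%), and 84128 to 99251 without 1 library. Called regions were 17705 with a joining distance of 300 bp, which formed 42387 regions, and 3451 with 50 bp, which formed 16761. They were 879 of 10545 for MspI-read cytosines alone (8.34%), and 9381 to 10397 without 1 library. Regions by size were 6341 at 10 points (20.3%), and 18914 and 3800 with 300 and 50 bp (44.6% and 22.7%). They were 1309 for MspI-read cytosines alone (12.4%), and 10035 to 11136 without 1 library. In sons of smoked sires 7676 MspI-read cytosines were called. The share of strand pairs with the same sign was 92.3% for changes above 25 points, 85.9% for MspI-read and 92.2% for TaqαI-read cytosines. Mid-level cytosines were 5.04% to 6.44% and low X cytosines 1.70% to 2.13% without 1 library, and mid-level cytosines were 8.74% with a window of 35 to 65% and 1.85% for MspI-read cytosines alone. The other alternatives of the called cytosines and regions and of the regions by size stayed within 1.5 times, and all 600 refits of 30 named regions kept their direction and call. The naming rule chose these regions for large differences and no overlap, so their refits say little about other regions. Other joining distances and 1 value per CpG give regions with other bounds and were not run for named regions. Depth is unknown, and the causes of these moves were not tested.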
